A study of Mus musculus with 12 samples.

Results

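The cytosolic ribosomal protein genes were followed across all 12 RNA-seq libraries. They were taken by symbol, as the rows named Rps or Rpl with a number and at most one of the usual suffixes, with the Rps6k kinases left out. Of the 25230 genes listed, 81 were chosen in this way, 32 of the small subunit (Rps) and 49 of the large subunit (Rpl). No measured value entered this rule, though it was set with earlier results of these data known. The cells were primary mouse mesangial cells (MMC), which are the contractile cells of the kidney glomerulus, grown from pooled glomeruli. They came either from wild-type C57BL/6 mice (WT) or from lncMGC-KO5 mice (KO), a single Cas9-edited line on the C57BL/6 background that is homozygous for a deletion at the start of lncMGC, the host transcript of the miR-379 cluster of miRNAs. Cells of each genotype were either serum-depleted (SD) or given TGF-β at 10 ng/ml for 24 h, and each of the 4 combinations has 3 libraries. They are called WT-SD and WT-TGF for wild-type cells, and KO-SD and KO-TGF for lncMGC-KO5 cells. The table of counts has no row for lncMGC, so its level could not serve to check the genotype labels, which are used as given. The study calls the 3 samples of a group independent, but the labels do not say whether they were separate cultures or animals. Every p-value below therefore measures the spread between these libraries, part or all of which may be technical. In the fit that spread was small, with a common coefficient of variation beyond counting noise of 0.027. Small p-values below therefore need not hold for new cultures or animals.

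The ribosome is built from a small and a large subunit, each of ribosomal RNA and a fixed set of proteins that are needed in about equal numbers. In mammals their mRNAs are among the most abundant of the cell, and they begin with a run of pyrimidines (the 5′ terminal oligopyrimidine or TOP tract) through which mTOR signalling sets their translation. Nearly every such gene has also left processed pseudogenes in the genome, intronless copies of its mRNA, so that a short read from the mRNA often matches several places. Several members act outside the ribosome too. Rpl5, Rpl11, Rpl23 and Rps7 can bind MDM2 and thereby stabilise p53, and loss of one copy of Rps19, Rpl5, Rpl11 and others causes Diamond-Blackfan anemia in humans.

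The start of a gene shows whether it has the letters of a TOP tract. Windows of 30 bases around the annotated starts, 10 before and 20 from the start onward, are given for members on which the results turn. All are RefSeq sequences of GRCm38.p6 (mm10), written 5′ to 3′ on the strand of the gene. Capitals mark a C followed by at least 4 pyrimidines that begins within 5 bases of the start. Of the members shown with such a run, Rpl14, Rps15a and Rpl7a were called higher in all 4 comparisons below, though some of these calls depended on the scaling. The others shown with a run were Rps6, the ribosomal target of the mTOR pathway, Rpl22l1, and Rpl15 and Rpl13a, whose response to TGF-β differed between the genotypes.
Rpl14 (chr9:120571507-120571536, plus strand): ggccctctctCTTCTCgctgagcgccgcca
Rps15a (chr7:118116128-118116157, minus strand): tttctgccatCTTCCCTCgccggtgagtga
Rpl7a (chr2:26910797-26910826, plus strand): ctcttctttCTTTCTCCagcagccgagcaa
Rps6 (chr4:86857348-86857377, minus strand): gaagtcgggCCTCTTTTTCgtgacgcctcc
Rpl22l1 (chr3:28805498-28805527, plus strand): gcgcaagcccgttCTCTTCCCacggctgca
Rpl15 (chr14:18270967-18270996, minus strand): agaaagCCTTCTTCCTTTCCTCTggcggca
Rpl13a (chr7:45128726-45128755, minus strand): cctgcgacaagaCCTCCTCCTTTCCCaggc
The members without one in this window include Rpl4, the member with the most counts, Rps3 and Rpl5.
Rpl4 (chr9:64173377-64173406, plus strand): tttcctgtgggagcagccgggtagagagga
Rps3 (chr7:99483690-99483719, minus strand): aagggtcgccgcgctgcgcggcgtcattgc
Rpl5 (chr5:107900518-107900547, plus strand): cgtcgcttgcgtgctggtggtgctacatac
Of the 81 members, 61 had an entry in the promoter table, and 29 of these (47.5%) had the run at one of their annotated starts, against 23.5% of the tested genes with an entry and 21.2% of all genes with one. The search read the strand of the gene only and depends on where the start is annotated. A missing run says only that none begins within 5 bases of an annotated start, and the letters can still lie elsewhere in the window.

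Each library had between 19898050 and 22827706 counts on genes. Replicates of a group differed by more than sampling noise (chi-square divided by its degrees of freedom, over all genes, 1.33 to 5.20), so all 12 were kept as separate libraries. The highest values were those of KO-SD replicate 1 against the other KO-SD libraries (4.91 and 5.20), and over the members alone they were 3.72 and 3.95 for that library and 1.49 to 2.15 for all other pairs. The 11 smooth muscle and mesangial markers had a summed level of 4450 to 14836 CPM (counts scaled to library size) in the 12 libraries. Of these 11, only 7 had enough reads to be tested. In KO against WT, 6 were called higher and 1 lower in SD (lowest log2 fold change -3.84). In TGF-β 5 were higher and 2 lower (lowest -4.47). Of all tested genes, 30.9% were called higher and 25.2% lower in SD, and 27.2% and 27.8% in TGF-β. The 8 macrophage markers summed to between 24.97 and 26.5 CPM in WT-SD, 15.2 and 18.7 in WT-TGF, 2.06 and 2.22 in KO-SD and 0.802 and 1.45 in KO-TGF. Adgre1, C1qa, C1qb and Tyrobp had no count in any KO library. All 3 of these markers that were tested were lower in KO. Sums over podocyte, endothelial and tubular markers were also lower in KO. Their part in the results below was not tested, and in bulk samples fewer cells of a type and less RNA per cell cannot be told apart.

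The members took a small part of each library. They held between 0.285% and 0.350% of the counts on genes, and 4 of them, with Rpl4, Rpl8 and Rps3 in the lead, held between 41.9% and 44.7% of all counts on members. Per exon length, averaged over the 12 libraries, Rpl4 (255 RPKM, counts scaled for exon length and library size), Rpl8 (252 RPKM) and Rps15 (189 RPKM) were highest. Rpl10l, Rpl26 and Rpl39l had no count in any library, which allows up to 3 counts or 0.131 to 0.151 CPM in each, and Rpl3l had at most 3 counts. Proteins that the ribosome needs in equal numbers thus ranged from no count to the 9394 to 11650 counts per library of Rpl4. In 17 members no library reached 20 counts, and in 17 others every library had over 1000.

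Reads with several alignments are not in the counts, and they made up 11.2% to 11.7% of each library over all genes. To describe what this can do to the members, 1 annotated transcript of each was divided into all windows of 51 bases, the read length, and each window was looked up in the transcripts of every other gene that does not overlap the member. The share of windows found in no other gene ranged from 1.36% for Rps27 to 100% for members such as Rpl3l and Rpl39l, with a median of 49.8%. A total of 1670 annotated pseudogenes shared windows with some member when 2 mismatches were allowed. The median member shared with 14 pseudogenes and Rpl7a with 159. Across the 78 members with a count, the log2 of mean CPM and this share had a Pearson r of 0.36 and a Spearman rho of 0.39, and with 2 mismatches allowed r was 0.16. These points share libraries, and members are not independent replicates.

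**Figure D1:**
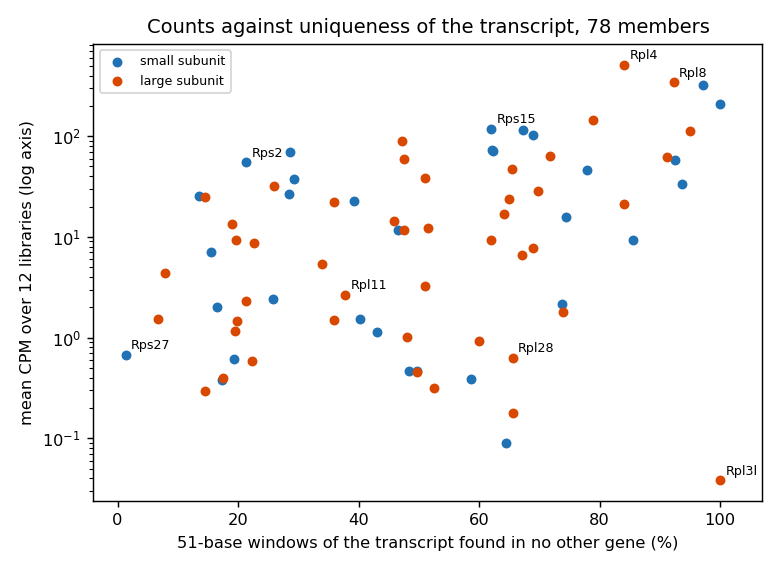
Mean CPM of each member over the 12 libraries (log axis) against the percentage of its 51-base windows that occur in no other annotated gene, for the 78 members with a count. The 15 members with at least 75% such windows had a median of 58.5 CPM and the 19 with under 25% a median of 2.01 CPM, but members such as Rpl28 combined many such windows with very few counts.

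The share of windows did not settle the level of a single member. Rpl28, with 65.5% of its windows found nowhere else, had 10 to 16 counts per library, while Rps2, with 21.3%, had 809 to 1445. Transcripts only were searched, not the whole genome. Some pseudogenes and retrogenes have rows of their own. Rpl14-ps1 had 1736 to 2327 counts per library, more than Rpl14 itself with 680 to 927, and Rpl37rt had 606 to 916, more than Rpl37 with 122 to 191. The levels of members are therefore levels of their countable reads and not of their mRNAs. Tests between groups were made on 1 member at a time, or on sums and shares that weigh each member by its countable reads. In all, 60 members passed the filter on low values (over 1 RPKM in at least 1 library) and were tested among 11529 genes. The other 21, each at 50 counts or fewer in every library, included Rpl3l, Rpl9, Rpl10l, Rpl21, Rpl23a, Rpl24, Rpl26, Rpl28, Rpl30, Rpl32l, Rpl34, Rpl36a, Rpl39l, Rps13, Rps16, Rps23, Rps27, Rps27a, Rps28 and Rps29. Since a member could pass the filter through the group in which it is high, counts over the 60 do not describe all 81.

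Together the members had more reads in KO than in WT. The summed CPM of all 81, scaled by TMM, was 2604, 2630 and 2710 in the WT-SD libraries and 3231, 3363 and 3346 in KO-SD. It was 3037, 3058 and 3128 in WT-TGF and 3722, 3775 and 3881 in KO-TGF. The 4 groups did not overlap, with WT-SD lowest, WT-TGF next, then KO-SD, and KO-TGF highest. The mean sum was 25.1% higher in KO-SD (3313 ± 71.8, SD, n = 3) than in WT-SD (2648 ± 55.3, SD, n = 3), and 23.4% higher in KO-TGF (3792 ± 80.7, SD, n = 3) than in WT-TGF (3074 ± 47.6, SD, n = 3). TGF-β went with a sum 16.1% higher in WT and 14.5% higher in KO. In the two-sided exact permutation test each of these 4 differences had p = 0.1, the smallest value that 3 against 3 libraries can give.

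**Figure D2:**
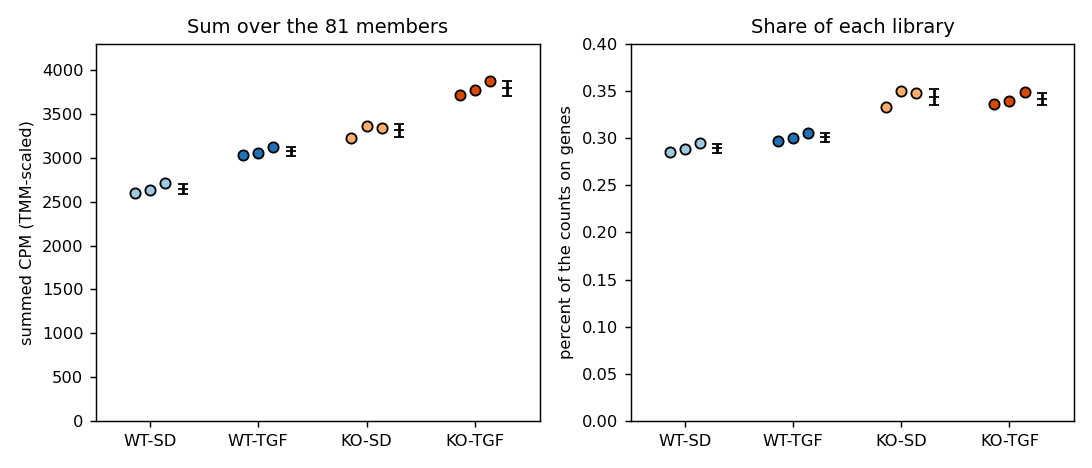
Left, summed CPM of the 81 members in each library after TMM scaling. Right, percentage of the counts on genes that fell on the members, without scaling. Points are libraries and bars beside them the mean and SD of the 3 libraries of a group. The sums rose from 2604 CPM in the lowest WT-SD library to 3881 CPM in the highest KO-TGF library, whereas the shares of KO-SD and KO-TGF overlapped.

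The scale decided the size of the TGF-β difference. As a plain share of the counts on genes, the members held 0.289% ± 0.00484 in WT-SD, 0.301% ± 0.00466 in WT-TGF, 0.344% ± 0.00895 in KO-SD and 0.341% ± 0.00636 in KO-TGF (SD, n = 3 each). On this scale KO stayed 18.7% above WT in SD and 13.4% above it in TGF-β, again without overlap. The TGF-β difference was 4.01% in WT (exact permutation p = 0.1), and in KO the share was 0.659% lower with TGF-β, with overlapping libraries (exact permutation p = 0.9). TMM factors, which correct for genes that take up much of a library, were 1.09 to 1.10 in WT-SD, 0.977 to 0.983 in WT-TGF, 1.03 to 1.04 in KO-SD and 0.898 to 0.904 in KO-TGF. The balance of the subunits moved little: Rps genes held between 44.5% and 46.1% of the member counts in all 12 libraries. In TGF-β the share was lower in KO (44.7% to 44.9%) than in WT (45.1% to 46.1%), without overlap. The exact permutation p of this comparison was 0.1, the smallest possible. The other comparisons of this share had exact permutation p-values of 0.2 to 0.6.

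The first comparison asked how the libraries labelled KO differ from WT, without and with TGF-β. A gene was called at a false discovery rate (FDR) below 5% in edgeR's quasi-likelihood test over all tested genes, with no limit on the fold. In SD, 46 of the 60 tested members were higher in KO and 0 were lower at that threshold, against 30.9% of all tested genes called higher. The median log2 fold change of the 60 was 0.33, against 0.02 over all tested genes. In TGF-β, 42 were higher and 0 lower, against 27.2% of all tested genes called higher, with medians of 0.29 and -0.00. Without KO-SD replicate 1 the count in SD was 48 and the median 0.36. In both conditions 41 members were called higher, against 19.8% of tested genes. Without overlap of the 3 libraries, 45 members lay above WT in SD and 43 in TGF-β, as did 32.4% and 30.6% of tested genes. By the same measure 0 members lay below WT in SD and 1 in TGF-β, beside 3085 and 3553 of the 11529 tested genes.

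**Figure D3:**
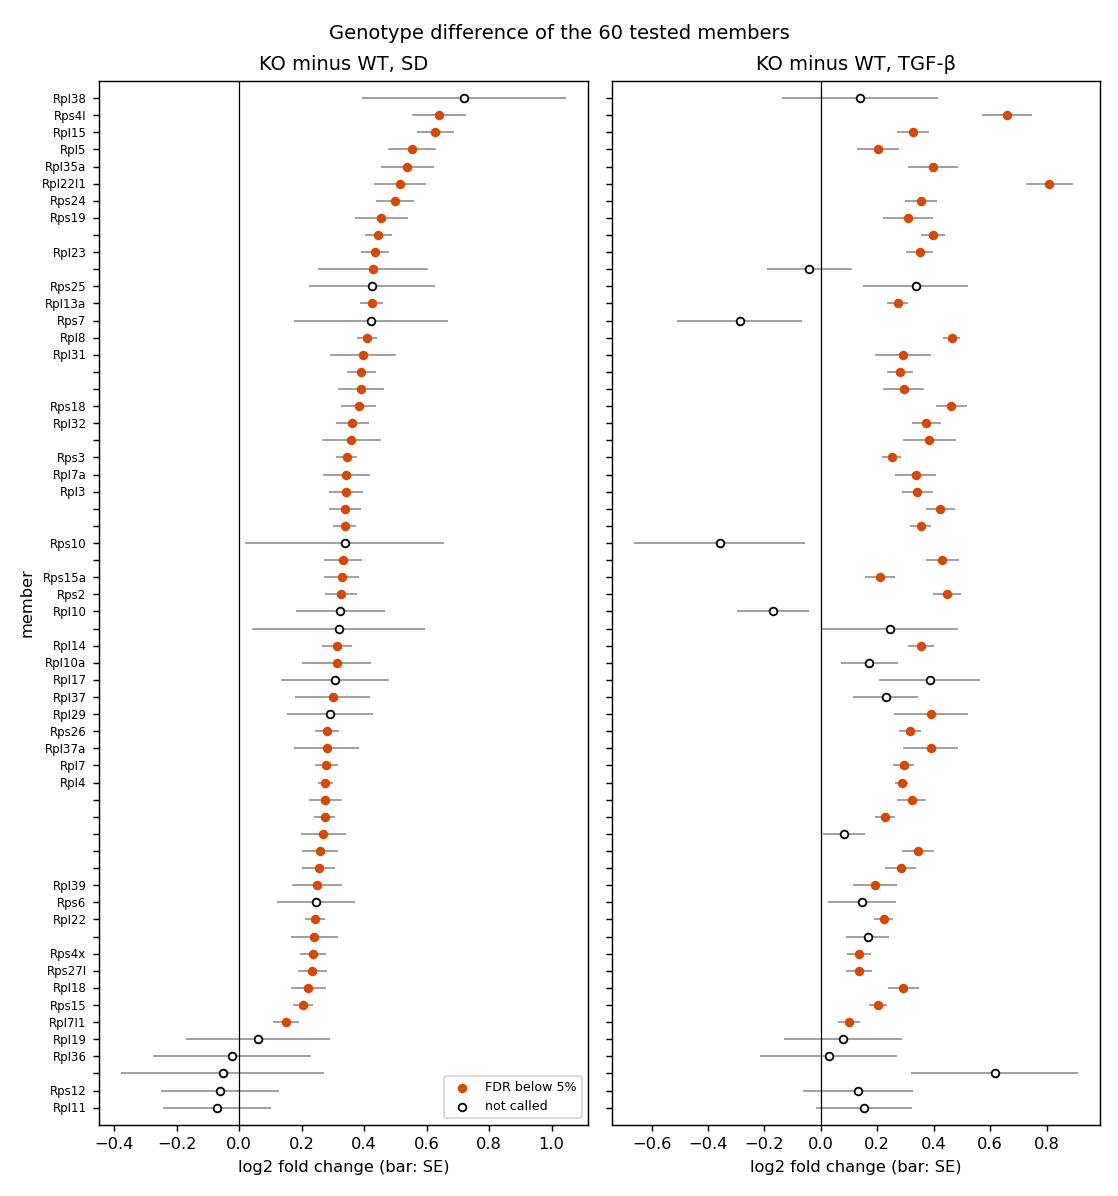
Log2 fold change of KO minus WT for the 60 tested members, in SD (left) and with TGF-β (right), in the order of the values in SD, with names for members described in the text. Filled points passed an FDR of 5%, open points did not, and bars are 1 standard error. Most members lie between 0.15 (Rpl7l1) and 0.64 (Rps4l) in SD, and the open points in SD are members at 7.12 CPM or less.

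The differences were modest and of like size. Members called higher in SD were 11.01% to 55.7% higher, and 2 of them, Rps4l and Rpl15, exceeded 1.5-fold. No member passed 2-fold in any comparison in which it was called. The small and the large subunit had medians of 0.33 (19 of 24 higher) and 0.31 (27 of 36) in SD and of 0.28 (18 of 24) and 0.29 (24 of 36) in TGF-β. The 14 members without a call in SD had few reads, with a median of 2.08 CPM and none over 7.12 CPM, whereas the 46 called had a median of 32.8 CPM. All 32 members over 20 CPM were called higher in SD, and 31 of them in TGF-β. Of the members with at least 75% of windows found nowhere else, 12 were tested, and all 12 were higher in both conditions, with medians of 0.33 and 0.26. More reads make a call easier to reach. The shares called among other genes over 20 CPM, or with such windows, were not computed.

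Rpl4 and Rpl8, large subunit proteins and the members with the most reads, showed the difference clearly. Rpl4 had 427, 441 and 442 CPM in WT-SD and 525, 527 and 534 in KO-SD, and 494, 482 and 486 in WT-TGF and 588, 592 and 603 in KO-TGF. Every KO library was above every WT library of its condition, and the log2 fold change was 0.28 ± 0.02 (SE, adjusted p = 1.1e-11) in SD and 0.29 ± 0.02 (adjusted p = 4.7e-12) in TGF-β. Rpl8 had 256, 253 and 254 CPM in WT-SD and 316, 352 and 345 in KO-SD, and 322, 325 and 335 in WT-TGF and 437, 460.1 and 456 in KO-TGF. It differed by 0.41 ± 0.03 in SD and 0.46 ± 0.03 in TGF-β, and KO-SD replicate 1 was the lowest KO library. Rps3, a small subunit protein that also takes part in DNA repair, was at 255 ± 9.3 CPM (SD) in WT-SD and 323 ± 6.6 in KO-SD, which gave 0.34 ± 0.03 (adjusted p = 2.1e-10). Rps15, the member with the third highest RPKM, had a smaller difference, 0.21 ± 0.03 in SD and 0.20 ± 0.03 in TGF-β.

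Rpl15, a large subunit protein, and Rpl5, which binds the 5S rRNA, stood with Rps4l at the top in SD among members whose higher group averaged 5 CPM or more. Rpl15 had 19.5, 20.99 and 20.5 CPM in WT-SD and 31.6, 31.5 and 31.3 in KO-SD, which gave 0.63 ± 0.06 (adjusted p = 1.2e-10). Rpl5 had 9.19, 8.54 and 9.24 CPM in WT-SD and 13.8, 12.9 and 12.8 in KO-SD, which gave 0.55 ± 0.08 (adjusted p = 3.6e-07). In both members the KO libraries lay far above the WT libraries. Rpl35a was similar, at 11.7 ± 0.53 CPM (SD) in WT-SD and 17.04 ± 1.7 in KO-SD (0.54 ± 0.09, adjusted p = 3.1e-06). In TGF-β the values of the 3 were smaller, 0.33 for Rpl15, 0.20 for Rpl5 and 0.40 for Rpl35a, all called.

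Of the 10 members mutated in Diamond-Blackfan anemia, 8 were tested, and 5, Rps19, Rps24, Rps26, Rpl5 and Rpl35a, were higher in KO in both conditions, beside 41 of all 60 tested members and 19.8% of tested genes. Rps24 had 16.5, 17.9 and 15.9 CPM in WT-SD and 23.7, 23.1 and 24.4 in KO-SD (0.50 ± 0.06, adjusted p = 2.0e-08). Rps19 was at 0.46 ± 0.08 and 0.31 ± 0.09, and Rps26 at 0.28 ± 0.04 and 0.32 ± 0.04. Rps7, Rps10 and Rpl11 were not called, and with 21 to 82 counts per library they were also the least deeply covered of the 8. Rpl26 had no count. Of the 4 that bind MDM2, Rpl23 was higher in KO (0.43 ± 0.05 in SD and 0.35 ± 0.05 in TGF-β) and so was Rpl5. Rpl11 (-0.07 ± 0.17 in SD, adjusted p = 0.75) and Rps7 (0.42 ± 0.25 in SD, adjusted p = 0.15) did not pass, but without KO-SD replicate 1 Rps7 did (0.65, adjusted p = 0.026). In TGF-β Rps7 stood lower in KO (-0.29) and was not called. The difference of its responses to TGF-β was -0.71 (adjusted p = 0.12), and it passed without KO-SD replicate 1 (-0.94, adjusted p = 0.027). Rps6, whose protein is phosphorylated by the S6 kinases, had 122 to 187 counts per library and was at 0.25 ± 0.12 in SD and 0.15 ± 0.12 in TGF-β, with adjusted p-values of 0.093 and 0.31, and passed in SD without the filter and without KO-SD replicate 3 (0.36). Rpl21 had 28 to 50 counts and was not tested. In TGF-β the call of Rpl5 was also lost in DESeq2 and without WT-TGF replicate 2 or KO-TGF replicate 1. With library size alone, the calls in TGF-β of Rpl5 (0.08, adjusted p = 0.36) and Rps19 (0.19, adjusted p = 0.067) were lost.

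Among members with at least 5 CPM in the higher group, the lowest values in SD were those of Rpl7l1, Rps15, Rpl18 and Rps27l, and Rpl10, Rpl7l1 and Rps27l were among the lowest in TGF-β. Rpl18 was 0.22 ± 0.06 higher in SD (adjusted p = 0.0012). Rpl10 had 4.82, 6.20 and 5.34 CPM in WT-TGF and 4.77, 5.46 and 4.36 in KO-TGF, which overlapped (-0.17 ± 0.13, adjusted p = 0.27, and a called -0.29 with library size alone), after 0.32 ± 0.14 in SD (adjusted p = 0.054, and called with a replicate block, with other filters, and without WT-SD replicate 1 or WT-TGF replicate 2). At the other end in TGF-β, after Rpl22l1 and Rps4l, came Rpl8 and Rps18 (0.46 ± 0.05, adjusted p = 1.4e-08), a small subunit protein.

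Some members have a paralog among the members, and these pairs did not always move alike. Rpl22l1 is the paralog of Rpl22 and can take its place in the ribosome. Rpl22l1 had 8.46, 9.71 and 9.51 CPM in WT-SD, 9.08, 8.83 and 8.84 in WT-TGF, 12.7, 13.6 and 13.3 in KO-SD and 14.2, 15.3 and 17.3 in KO-TGF. Its KO libraries were all above its WT libraries, by 0.51 ± 0.08 in SD (adjusted p = 3.6e-06) and 0.81 ± 0.08 in TGF-β (adjusted p = 9.8e-10), the largest value of any member in TGF-β and a fold of 1.75. Rpl22 had 106.9, 106 and 109 CPM in WT-SD, 96.8, 99.9 and 98.2 in WT-TGF, 124, 125 and 132 in KO-SD and 113, 115 and 116 in KO-TGF. It was also higher in KO, by 0.24 ± 0.03 and 0.22 ± 0.03, and it was lower with TGF-β in both genotypes.

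Rps4l, an autosomal gene (chr6:148354656-148355596, plus strand), stood beside Rps4x, the X-linked gene of the small subunit. Rps4l had 7.05, 7.63 and 6.96 CPM in WT-SD and 11.4, 11.5 and 10.9 in KO-SD, and 6.90, 7.89 and 6.52 in WT-TGF and 11.3, 11.7 and 10.8 in KO-TGF. Its KO libraries did not overlap its WT libraries in either condition, with 0.64 ± 0.09 in SD (adjusted p = 2.3e-07) and 0.66 ± 0.09 in TGF-β (adjusted p = 2.6e-07). Rps4x was at 63.5 ± 1.9 CPM (SD) in WT-SD and 74.9 ± 2.7 in KO-SD, at 0.24 ± 0.04 in SD and 0.14 ± 0.04 in TGF-β. Of the windows of Rps4l 85.6% were found in no other gene, and of those of Rps4x 28.5%.

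Rps27l, which is a known target of p53, had 842 to 1088 counts per library, whereas Rps27 had 8 to 18, with 1.36% of its windows found nowhere else. Rps27l was 0.23 ± 0.05 higher in KO in SD (adjusted p = 6.6e-05) and 0.13 ± 0.05 in TGF-β (adjusted p = 0.014). With library size alone the calls in TGF-β of Rps27l and Rps4x were lost, both at 0.01, and that of Rps27l also without WT-TGF replicate 1 or 3 or KO-TGF replicate 3. Rpl7l1, a paralog of Rpl7 that acts in ribosome assembly, had the smallest called difference, 0.15 ± 0.04 in SD and 0.10 ± 0.04 in TGF-β (adjusted p = 0.038), the latter turning to -0.02 with scaling by library size alone and losing its call without WT-SD replicate 1 or 3, WT-TGF replicate 1 or 3, or KO-TGF replicate 3. Rpl7 itself was at 0.28 ± 0.04 and 0.29 ± 0.04. The muscle-restricted Rpl3l and the testis genes Rpl10l and Rpl39l were at or below 3 counts beside Rpl3 (457 to 595 counts), Rpl10 (63 to 139) and Rpl39 (335 to 508). Rpl32l, which stands beside Rpl32 in the naming, had 1 to 8 counts.

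**Figure D4:**
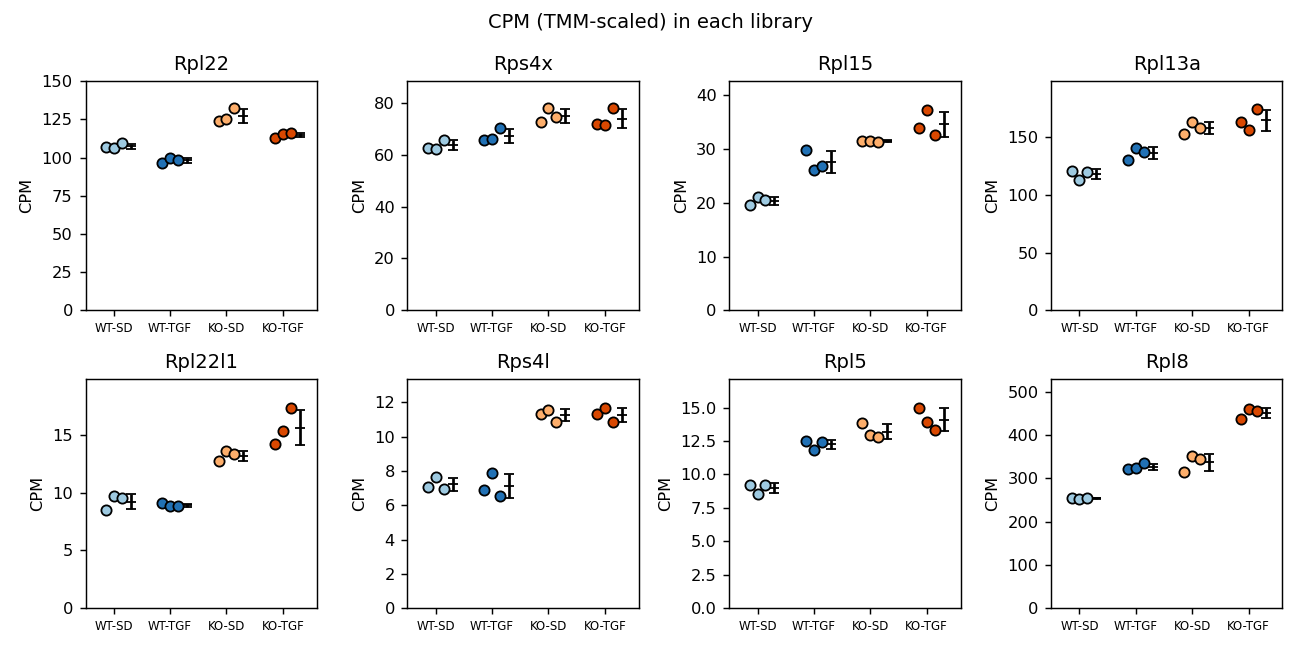
CPM after TMM scaling in each library for 8 members, with the mean and SD of each group beside the points. Rpl22l1 and Rps4l separate by genotype, Rpl22 is lowest in WT-TGF, and Rpl15, Rpl5 and Rpl13a are closer to each other in KO-SD and KO-TGF than in WT-SD and WT-TGF.

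The second comparison asked which members responded to TGF-β within each genotype. In WT, 38 of the 60 tested members rose with TGF-β and 1 fell, against 36% of all tested genes called higher and 36.4% called lower. In KO, 34 rose and 1 fell, against 34.9% and 39.1%. The medians were 0.23 in both, against -0.00 in WT and -0.03 in KO over all tested genes. These counts depended on the scaling. With library size alone, 16 rose and 3 fell in WT and 4 rose and 13 fell in KO, while the median of all tested genes moved from -0.00 to -0.16 in WT and from -0.03 to -0.23 in KO. Relative to the median of all tested genes the members stood at 0.23 in WT and 0.25 in KO under either scaling. A change of scaling shifts all genes nearly alike, so this distance could hardly move and does not bear on which scale is right. Without KO-SD replicate 1, 32 rose and 2 fell in KO, with a median of 0.18. All TGF-β counts and medians below are after TMM scaling.

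Both genotypes shared 29 risers, against 30.1% of tested genes, and 26 members were called higher in all 4 comparisons, against 12.2% of tested genes. These comparisons share libraries. With library size alone, Rpl14 lost its calls with TGF-β in WT (0.09, adjusted p = 0.089) and KO (0.09, adjusted p = 0.087). So did Rpl7a (0.09, adjusted p = 0.30, and 0.04, adjusted p = 0.65). Rps15a lost its genotype call in TGF-β (0.09, adjusted p = 0.15). Rpl22 was the single member that fell, by 0.13 ± 0.03 on the log2 scale in WT (adjusted p = 0.00072) and by 0.15 ± 0.03 in KO (adjusted p = 0.00012), and its WT-SD and WT-TGF libraries did not overlap, nor did those of KO. It fell under library size alone as well. A total of 7 members, Rpl11, Rpl17, Rpl19, Rpl36, Rps10, Rps12 and Rps25, were called in none of the 4 comparisons nor in the difference of the responses. Rps10 was at 0.63 with TGF-β in WT (adjusted p = 0.065) and passed under some alternatives, such as a replicate block (adjusted p = 0.040). Without KO-SD replicate 1 it passed between genotypes in SD (0.70, adjusted p = 0.020) and in the difference of the responses (-1.06, adjusted p = 0.019). Without KO-SD replicate 2 its genotype value in SD was -0.05.

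In WT the largest responses among members with at least 5 CPM in the higher group were those of Rpl10, Rpl10a, Rpl31 and Rpl5, all of the large subunit. Rpl10 had 3.55, 3.17 and 2.87 CPM in WT-SD and 4.82, 6.20 and 5.34 in WT-TGF, without overlap (0.77 ± 0.13, adjusted p = 6.4e-06). Rpl10a rose by 0.50 ± 0.11, Rpl31 by 0.46 ± 0.11 and Rpl5 by 0.45 ± 0.08. Rpl22, Rpl22l1 (-0.05), Rps4l (-0.02) and Rps19 (0.04) had the smallest values, and of these Rpl22 alone was called. Rpl38, a large subunit protein known from patterning of the mouse skeleton, had 9 to 32 counts per library and rose by 0.92 ± 0.32 in WT (adjusted p = 0.011), the largest of the 60 values. The call was lost without WT-SD replicate 1 (0.70, adjusted p = 0.067) or WT-TGF replicate 1 (0.78, adjusted p = 0.056).

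In KO, by the same limit on CPM, the largest responses were those of Rps2, Rpl8, Rps18 and Rpl29. Rps2, a small subunit protein, had 47.6, 52.2 and 51.8 CPM in KO-SD and 71.2, 74.7 and 75.9 in KO-TGF (0.55 ± 0.05, adjusted p = 1.6e-11), and in WT it rose by 0.43 ± 0.05. Rpl8 rose by 0.42 ± 0.03 in KO and 0.36 ± 0.03 in WT, and Rps18 by 0.39 ± 0.05 and 0.31 ± 0.06. Rpl29 rose by 0.38 ± 0.13 (adjusted p = 0.010), with 85 to 140 counts per library, a call that was lost with library size alone (0.17) and without KO-SD replicate 1 (0.27) or 3 (0.30). Rpl22 was lowest and called, and Rps19 (-0.11) and Rpl35a (-0.05) were low and not called. Rpl4, with 0.16 ± 0.02 in WT and 0.17 ± 0.02 in KO, and Rps15, with 0.09 ± 0.03 in each, were called after TMM scaling but turned below 0 with library size alone.

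The third comparison asked whether the response differed between the genotypes. A difference of the responses was called for 3 of the 60 members, all with a smaller rise in KO, and for none with a larger one, against 16.6% of tested genes with a negative and 8.67% with a positive difference. The median difference of the members, -0.03, was that of all tested genes, -0.03. The count rested on single libraries. With 1 library left out at a time it went from 1 (KO-TGF replicate 3 left out) to 5 (replicate 1 of WT-TGF or of KO-SD left out), and it was 2 without WT-SD replicate 2, WT-TGF replicate 2 or 3, KO-SD replicate 2, or KO-TGF replicate 1 or 2. In DESeq2 it was 1.

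Rpl15 had the clearest difference. It rose from 20.3 ± 0.76 CPM (SD) in WT-SD to 27.6 ± 2.0 in WT-TGF, a log2 fold change of 0.44 ± 0.06, and from 31.5 ± 0.15 in KO-SD to 34.6 ± 2.3 in KO-TGF, one of 0.14 ± 0.06 that turned to -0.07 with library size alone and was not called without KO-SD replicate 2 or 3 or KO-TGF replicate 2. The difference was -0.30 ± 0.08 (adjusted p = 0.0058). Rpl5 rose by 0.45 ± 0.08 in WT, to 12.5, 11.9 and 12.4 CPM, and stood at 0.09 ± 0.07 in KO, with 15.0, 13.96 and 13.3 CPM in KO-TGF, and the difference was -0.35 ± 0.11 (adjusted p = 0.015). Rpl13a, which besides its place in the ribosome is known from the control of inflammatory mRNAs, had 121, 113 and 120.1 CPM in WT-SD, 131, 141 and 138 in WT-TGF, 153, 163 and 159 in KO-SD and 163, 156 and 175 in KO-TGF. Its KO groups overlapped and its WT groups did not. It rose by 0.21 ± 0.04 in WT and was at 0.06 ± 0.04 in KO, with a difference of -0.15 ± 0.05 (adjusted p = 0.029). The value in KO turned to -0.15 with library size alone, and it was called higher with a GC offset (0.08, adjusted p = 0.015) and without KO-TGF replicate 2 (0.12, adjusted p = 0.010). For Rpl22l1 the difference went the other way, 0.30 ± 0.12, and for Rpl10 it was -0.49 ± 0.19, and neither passed (adjusted p = 0.065 and 0.057). Rpl22l1 passed with an offset for exon length or GC content and without WT-SD replicate 1 or KO-TGF replicate 1 or 2 (0.33 to 0.40). Rpl10 passed with library size alone, without the filter, with a replicate block (adjusted p = 0.049), and without WT-SD replicate 1, WT-TGF replicate 1 or KO-TGF replicate 2 (-0.49 to -0.58).

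Members were also divided by the pyrimidine run at their start. In SD, 19 of 24 tested members with the run were higher in KO, with a median of 0.34, and 16 of 22 without it, with a median of 0.31. In TGF-β the medians of the genotype difference were 0.29 and 0.24. With TGF-β the medians were 0.28 and 0.18 in WT and 0.26 and 0.19 in KO, and 18 of 24 and 13 of 22 rose in WT and 15 of 24 and 10 of 22 in KO. Rps6, with a run of 10 pyrimidines, rose by 0.31 ± 0.12 in WT (adjusted p = 0.024), while Rps3, without a run, rose by 0.34 ± 0.03. The call of Rps6 was lost with library size alone (0.16, adjusted p = 0.25), in DESeq2 (adjusted p = 0.052), and without WT-SD replicate 1 or WT-TGF replicate 1 or 3. No test was made between these groups of members.

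Ribosomal proteins whose symbols the rule does not catch were also mostly higher in KO. Of 8 such genes, 5 were higher in KO in SD and 6 in TGF-β, with medians of 0.36 and 0.28 (members 0.33 and 0.29). The shares higher, 62.5% and 75%, stood beside 30.9% and 27.2% of all tested genes. Rack1, the signalling scaffold of the small subunit, had 340.0, 334 and 360 CPM in WT-SD, 445, 494 and 485 in KO-SD, 443, 449 and 467 in WT-TGF and 605, 616 and 645 in KO-TGF. It differed by 0.46 ± 0.03 between the genotypes in both conditions, and its 4 groups did not overlap except for WT-TGF and KO-SD. The acidic stalk proteins followed, Rplp0 at 0.40 and 0.39, Rplp1 at 0.41 and 0.31 and Rplp2 at 0.34 and 0.24. Fau was at 0.13 in SD (adjusted p = 0.031), a call that was lost with library size alone (0.059), in DESeq2, with only the groups compared, and without WT-SD replicate 1 or 2, KO-SD replicate 2 or 3, or any one KO-TGF library. In SD, Rpsa (0.38) and Rpl36al (0.20) did not pass, though both did without KO-SD replicate 1 (0.47, adjusted p = 0.041, and 0.30, adjusted p = 0.021). With TGF-β 6 of the 8 rose in WT and all 8 in KO, beside 36% and 34.9% of all tested genes. The medians of the 8 were 0.40 and 0.40, against 0.23 and 0.23 for the members. No test was made between these genes and the members.

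The mitochondrial ribosomal proteins, which build another ribosome and are not TOP messages as a class, had medians of the genotype difference of 0.03 in SD and 0.04 in TGF-β. Of 76 tested, 19 were higher and 5 lower in KO in SD, and 13 and 5 in TGF-β. The shares higher, 25% and 17.1%, stood beside 30.9% and 27.2% of all tested genes, and the list was not tested against the members. Mrps28 (0.55 ± 0.12) and Mrpl13 (0.49 ± 0.07) had the largest values in SD. With TGF-β 37 rose (48.7%) and 3 fell (3.95%) in WT, against 36% and 36.4% of all tested genes. In KO 35 rose (46.1%) and 6 fell (7.89%), against 34.9% and 39.1%. The medians of the list were 0.15 and 0.15. Factors of ribosome assembly and RNA polymerase I were called higher in KO for 12 of 40 in SD, lower for 4, with a median of 0.08, and for 11 and 3 in TGF-β, with a median of 0.02. The shares higher, 30% and 27.5%, were near those of all tested genes, 30.9% and 27.2%. With TGF-β 32 rose and 2 fell in WT and 31 rose and 2 fell in KO, with medians of 0.41 and 0.39. The shares that rose, 80% and 77.5%, stood beside 36% and 34.9% of all tested genes. Taf1d (0.46 ± 0.08) and Taf1a (-0.43 ± 0.07), subunits of the factor that starts RNA polymerase I transcription, differed most in SD, in opposite directions.

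Other messages known to carry a TOP tract, 25 in all, were close to the members between genotypes and less so with TGF-β. By the search above, 8 of the 18 with an entry in the promoter table (44.4%) had the run. In SD 19 of the 25 were higher in KO and 0 lower, with a median of 0.26. In TGF-β 20 were higher and 1 lower, with a median of 0.25. The shares higher, 76% and 80%, stood beside 30.9% and 27.2% of all tested genes. With TGF-β 14 of the list rose and 5 fell in WT, with a median of 0.16. In KO 11 rose and 6 fell, with a median of 0.08. The shares that rose, 56% and 44%, stood beside 36% and 34.9% of all tested genes. The elongation factor Eef1a1 was higher in KO (0.26 ± 0.02 in SD and 0.25 ± 0.02 in TGF-β) and fell with TGF-β by 0.15 ± 0.02 in WT and 0.16 ± 0.02 in KO. Hnrnpa1 (0.67 ± 0.11) and Snhg6 (0.53 ± 0.08) had the largest values in SD.

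Regulators of ribosome supply were mixed. Of 24, 10 were higher (41.7%) and 9 lower (37.5%) in KO in SD, against 30.9% and 25.2% of all tested genes. In TGF-β 6 were higher (25%) and 9 lower (37.5%), against 27.2% and 27.8%. The translation repressor Eif4ebp1 was higher in KO in both (0.63 ± 0.05 and 0.65 ± 0.04) and Mycn lower (-3.16 ± 0.17 and -2.61 ± 0.16). Myc, a transcription factor that drives ribosomal protein genes in many cells, had 13.2, 13.0 and 13.2 CPM in WT-SD, 40.2, 38.3 and 38.5 in WT-TGF, 20.6, 18.9 and 17.4 in KO-SD and 40.2, 40.9 and 38.6 in KO-TGF. It was higher in KO in SD (0.53 ± 0.07, adjusted p = 4.8e-08) and was at 0.03 ± 0.05 in TGF-β (adjusted p = 0.60). Its part in the values of the members was not tested.

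Genes of cell division moved with the genotype in SD as well and against the members with TGF-β. All 20 of the proliferation list were higher in KO in SD, with a median of 1.58, against 30.9% of all tested genes. In TGF-β 11 were higher (55%) and 2 lower (10%), with a median of 0.38, against 27.2% and 27.8% of all tested genes. With TGF-β 2 of the list rose and 17 fell (85%) in WT, beside 36.4% of all tested genes that fell. In KO 1 rose and 19 fell (95%), beside 39.1%. The medians of these 20 genes were -0.94 and -2.12. Their summed level was 257 to 287 CPM in WT-SD, 186 to 193 in WT-TGF, 742 to 748 in KO-SD and 214 to 223 in KO-TGF. KO-TGF, the group with the highest level of the members, was thus below WT-SD in these genes, and their part in the genotype difference was not tested. Ccnb1 (2.18 ± 0.15) and Aurkb (2.17 ± 0.12) had the largest values in SD. Mki67 had 37.3, 35.1 and 44.9 CPM in WT-SD, 149, 153 and 147 in KO-SD, 8.65, 10.3 and 8.89 in WT-TGF and 16.5, 16.5 and 17.7 in KO-TGF. Among the cell type markers of the naming rule, Lyz2 was at 12.02 ± 1.3 CPM (SD) in WT-SD and 0.374 ± 0.093 in KO-SD. Adgre1 was at 7.67 ± 0.065 and 0 CPM, Pdgfrb at 288 ± 4.2 and 306 ± 8.5, and Acta2 at 1567 ± 64 and 3249 ± 64. Not all mesangial and smooth muscle markers were higher in KO. Of the 7 tested, 6 were higher and 1 lower (-3.84) in SD, and 5 were higher and 2 lower in TGF-β.

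Of 10 rows for pseudogenes or retrogenes of members, Rpl14-ps1 and Rpl37rt had at least 606 counts in every library and the others at most 50. Rpl14-ps1 was higher in KO by 0.34 ± 0.04 in SD and 0.35 ± 0.04 in TGF-β and rose with TGF-β by 0.24 ± 0.04 in WT and 0.25 ± 0.04 in KO. Rpl14 had 0.31 ± 0.05, 0.35 ± 0.05, 0.25 ± 0.05 and 0.29 ± 0.05 in the same 4 comparisons. Rpl37rt was 0.44 ± 0.05 higher in KO in SD and 0.30 ± 0.05 in TGF-β, and with TGF-β it rose by 0.22 ± 0.05 in WT and was at 0.08 ± 0.05 in KO (adjusted p = 0.19). Between genotypes Rpl37 was at 0.30 ± 0.12 (adjusted p = 0.036) and 0.23 ± 0.11 (adjusted p = 0.093). The genes of these pairs share sequence, so their reads cannot be told apart fully, and their values are not independent.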

How the data were processed

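RNA-seq libraries of mRNA from WT and lncMGC-KO5 mesangial cells were made by the authors (KAPA mRNA HyperPrep), sequenced as single 51-base reads, aligned to mm10 with TopHat and assigned to RefSeq genes with HTSeq-count, reverse-stranded. The values deposited are whole-number counts per gene and library, without normalization. Rows that name no gene (no feature, ambiguous, not unique) stayed out of library sizes and tests, and not unique alignments were 11.2% to 11.7% of each library.

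The 12 libraries entered 1 fit of edgeR's quasi-likelihood test (edgeR 4.0.16 in R 4.3.3, TMM), for genes over 1 RPKM in at least 1 library, with Benjamini-Hochberg adjustment over 11529 genes and a threshold of 5%. CPM and RPKM were computed from the counts, RPKM with the exon length of the merged GENCODE models. Sums were compared with two-sided exact permutation tests. Floors (3 counts) cover counting error only. Each ± is an SD over the 3 libraries of a group or the SE of the fit, and both include the spread between libraries. Alternatives were DESeq2 1.42.0, other scalings and filters, length and GC offsets, a replicate block and leaving out each library. The fit was tested on simulated counts. Named genes were, per contrast, the 4 largest and 4 smallest values among members with at least 5 CPM in the higher group, paralogs, members without counts, those of highest and lowest RPKM, Rps6, Rpl21, those with a known disease or MDM2 role, ribosomal proteins outside the rule, 6 markers, and the 2 largest genotype differences in SD per list. Other members, Eef1a1 and the pseudogene rows were named after their values were seen. Members and lists were chosen with earlier results of these data known. Single values of a few genes are not reported here.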

Additional observations from a re-analysis of the deposited data

Results flagged for a closer look

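For 3 members the TGF-β response differed between the genotypes in the test of the difference itself, at an adjusted p below 0.05 over all tested genes in edgeR's quasi-likelihood test. The difference, KO minus WT on the log2 scale, was -0.15 for Rpl13a, -0.30 for Rpl15 and -0.35 for Rpl5, each time with a smaller rise in KO. Rpl15 lost its call without KO-TGF replicate 3 (-0.22, adjusted p = 0.057) and under no other alternative run. Rpl5 lost it without KO-TGF replicate 2 (-0.31, adjusted p = 0.055) or 3 (-0.27, adjusted p = 0.085) and in DESeq2 (-0.32, adjusted p = 0.097). Rpl13a, the smallest of the 3 differences, lost it in DESeq2 (-0.13, adjusted p = 0.14) and with an offset for exon length (-0.12, adjusted p = 0.078). It also lost it without WT-SD replicate 2 (-0.13, adjusted p = 0.098), WT-TGF replicate 2 (-0.13, adjusted p = 0.095) or 3 (-0.15, adjusted p = 0.062), KO-SD replicate 2 (-0.13, adjusted p = 0.079), or KO-TGF replicate 1 (-0.11, adjusted p = 0.19) or 2 (-0.08, adjusted p = 0.34).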

How the results depend on the processing

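Scaling by library size alone moved most values. With TGF-β it gave 16 members higher and 3 lower in WT (median 0.072) and 4 higher and 13 lower in KO (median 0.023). Between genotypes the median was 0.25 in SD and 0.17 in TGF-β, with 1 member called lower in TGF-β, Rpl10 at -0.29, and Rpl7l1 at -0.022. For the difference of the responses 5 members were lower and the median was -0.079. In WT the TGF-β value of Rps15 turned to -0.065, of Rpl7 to -0.090, of Rpl3 to -0.016 and of Rpl4 to -0.00098. In KO it turned to -0.20 for Rps4l, -0.068 for Rpl15, -0.11 for Rps15, -0.11 for Rps27l, -0.15 for Rpl13a, -0.12 for Rpl7, -0.060 for Rpl3 and -0.036 for Rpl4. The median over all tested genes moved with it. The members' distance from that median stayed within 0.01, as it must when a scaling shifts all genes nearly alike.

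Without the filter the TGF-β median in WT was 0.28, and the difference of the responses had 6 members lower and a median of -0.071. That difference had 1 member lower in DESeq2, 1 higher with an exon length offset, and 1 higher and a median of 0.0028 with a GC offset. With all rows of the file in the denominator, the share of the members changed with TGF-β by 8.90% in WT and 2.59% in KO, and between genotypes by 22.7% in SD and 15.6% in TGF-β. The cause was not tested.

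Leaving out 1 library at a time, the median was 0.18 to 0.26 for TGF-β in KO, 0.20 to 0.25 in WT, 0.30 to 0.36 for the genotypes in SD, 0.28 to 0.32 in TGF-β and -0.047 to 0.031 for the difference of the responses. Members lower with TGF-β in KO were 1 to 2, with 2 when either KO-SD replicate 1 or replicate 2 of KO-TGF was left out. For the difference of the responses 0 to 1 were higher and 1 to 5 lower.

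Libraries with the same replicate number hardly deviated together (correlations of -0.03 to 0.066, against -0.11 to 0.072 for different numbers). These deviations from a mean of 3 libraries include counting noise, so a pairing was neither shown nor excluded. With a replicate block 39 members were higher with TGF-β in WT, 36 in KO, 47 higher in KO in SD, 44 in TGF-β, and 4 lower in the difference of the responses. Of 4465 values of single genes under alternatives, 4258 stayed on their side of the threshold, 120 of them with a change of sign below it. Counts limit what can be seen for members with few reads: the 14 without a genotype call in SD had a median of 2.08 CPM.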
